A study of Homo sapiens with 8 samples.

Results

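Genes that build the extracellular matrix, and the receptors that bind cells to it, were examined for peaks of N4-acetylcytidine (ac4C), an acetylated form of cytidine in RNA. The genes were chosen by symbol alone: integrin subunits with a numbered chain, numbered laminin chains, collagen chains, and TNC, NID1, NID2, CD44, FN1, THBS1, SPARC, HSPG2, AGRN, LOX and LOXL2. The rule took 90 RefSeq protein-coding genes, of which 41 had a uniquely named peak in at least 1 of the 2 deposited peak lists. These 41 stand among 9046 gene identifiers with a peak, and they held 37 of the 4557 peaks of the NAT10-knockout list and 102 of the 12924 peaks of the SiHa list.

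SiHa is a human cervical carcinoma line, and the libraries came from SiHa cells with NAT10 knocked out (KONAT10SiHa) and from SiHa cells with NAT10 intact. NAT10 is the acetyltransferase that makes ac4C. RNA bound by an ac4C antibody and input RNA were each sequenced from 2 biological replicates of either population, 8 libraries in 4 groups. The labels do not say whether the knockout is 1 clone or a pool, and no treatment is named. The values at hand are 1 list of peaks per population, with a p-value per peak and, in the knockout list alone, a fold enrichment and a false discovery rate. The list with a K added to its name was read as that of the knockout cells, which no label states. All p-values, folds and false discovery rates below are the authors' values for single peaks, not tests between the populations. Nothing is given per replicate and read depth is unknown, so every comparison below sets 1 list against the other without a replicate check. The lists hold no expression level, so the cell type could not be checked against marker genes, and a missing peak does not measure the absence of ac4C or of the transcript. In NAT10 itself there were 0 knockout peaks and 1 SiHa peak.

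The matrix is a mesh of secreted proteins. Collagens form its fibres and networks, laminins, type IV collagen, nidogens and perlecan form the basement membrane beneath epithelia, and fibronectin, tenascin and thrombospondin are glycoproteins that cells deposit during adhesion and repair. Integrins are receptors of 1 α and 1 β chain that span the membrane and couple these proteins to the actin or keratin cytoskeleton. In squamous epithelium laminin is held by the integrins of ITGA6 with ITGB4 and of ITGA3 with ITGB1.

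Sequence under a member's peak was at hand only where a RefSeq window around a gene start (GRCh38.p14) reached into it, which was the case for pieces of 5 SiHa peaks and of no knockout peak. For ITGB5 and COL13A1 the window was that of another annotated gene, LOC124909422 and LOC124902444. The pieces are shown because cytidine is the base that is acetylated. All cytidines are in capitals, and each piece is written 5′ to 3′ on the strand of the gene. Of ITGB5, the 213 bases lie at chr3:124796413-124796625, minus strand, inside a peak of 361 bases. Of ITGB1, the 30 bases at chr10:32935529-32935558, minus strand, begin with a start codon. The other pieces are the first 30 bases of a peak block at chr15:39581079-39581108 (THBS1, plus strand), chr21:45455489-45455518 (COL18A1, plus strand) and chr10:69801931-69801960 (COL13A1, plus strand). The authors' p-values of these peaks were 7.9e-32 (ITGB5), 8.9e-07 (ITGB1), 8.3e-05 (THBS1), 0.0066 (COL18A1) and 1e-230 (COL13A1). Those of ITGB1, THBS1 and COL18A1 were not the strongest SiHa peaks of their genes.
ITGB5: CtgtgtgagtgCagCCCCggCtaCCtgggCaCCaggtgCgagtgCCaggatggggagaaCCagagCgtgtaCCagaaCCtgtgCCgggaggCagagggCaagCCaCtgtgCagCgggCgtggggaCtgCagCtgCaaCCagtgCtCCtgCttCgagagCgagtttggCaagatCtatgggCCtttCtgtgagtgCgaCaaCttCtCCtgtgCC
ITGB1: atgaatttaCaaCCaattttCtggattgga
THBS1: agCCgCtgCgCCCgagCtggCCtgCgagtt
COL18A1: agaggCCCtCCCgCCgCCCgCagCtCCagC
COL13A1: tgtgtCaagttaCagaggCgCCggaatCgg

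Cytidine made up 26.8% of the ITGB5 piece, 13.3% of that of ITGB1, 36.7% of that of THBS1, 53.3% of that of COL18A1 and 20.0% of that of COL13A1. Over 35116 RefSeq windows the median was 28.2% for stretches of 213 bases, the length of the ITGB5 piece, and 26.7% for the 30 bases that follow the start. In its first reading frame the ITGB5 piece had no stop codon in 71 codons, and 13 of these encode cysteine. Integrin β chains are known for cysteine-rich repeats in the stalk outside the cell. The motif CNNCNNCNN, searched on the strand of the gene alone with overlapping matches counted, occurred 11 times in ITGB5, 6 times in COL18A1 and 2 times in THBS1. It was found 0 times in the pieces of ITGB1 and COL13A1. It is common: 91.9% of stretches of 213 bases and 38.2% of stretches of 30 bases (the last part of each RefSeq window and the bases after each start) hold it, so its presence sets none of these genes apart.

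Of the 90 genes, 26 had a knockout peak (28.9%) and 32 had a SiHa peak (35.6%), against 14.9% and 29.2% of all 20056 RefSeq protein-coding genes. Peaks in both lists were found for 17 genes, a knockout peak alone for 9 and a SiHa peak alone for 15. So 15 of the 32 genes with a SiHa peak (46.9%) had no knockout peak, a smaller share than the 73% of all 7291 genes with a SiHa peak. When only peaks above a −log10 p of 8 were kept in both lists, the share was 14 of 19 (73.7%), against 84.8% of all genes. Of the 26 genes with a knockout peak, 9 (34.6%) had none in SiHa, against 47.1% of all 3726. In these comparisons of genes with a peak, all genes means every identifier, those without a protein-coding name included. The family holds protein-coding genes alone. The genes of this family are long, with a median span of 89.7 kb against 24.1 kb for all protein-coding genes. Among genes with a peak in either list the medians were 85.3 kb and 35.8 kb. Of the 32 with a SiHa peak, 15 (46.9%) had 3 or more, against 18.3% of all genes with a SiHa peak. Genes with more SiHa peaks lacked a knockout peak less often in the whole list. The share without one was 78.5% of genes with 1 SiHa peak, 69.0% with 2 and 59.9% with 3 or more, and in the matrix genes it was 4 of 8, 2 of 9 and 9 of 15. These are 50%, 22.2% and 60.0% of the matrix genes, so the share lay below that of all genes with 1 or 2 SiHa peaks and beside it with 3 or more.

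**Figure D1:**
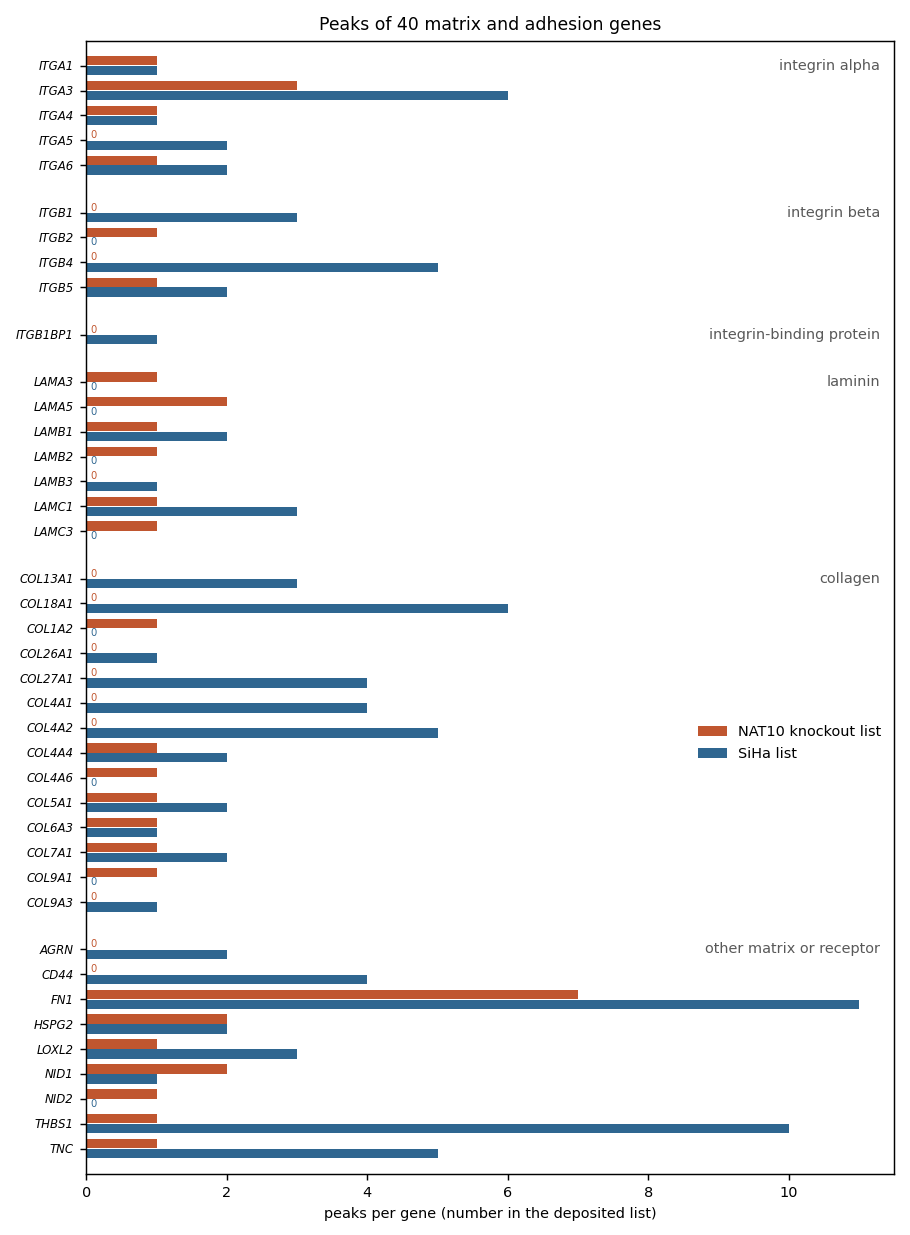
Number of peaks (x axis) in the NAT10-knockout list (upper bar) and the SiHa list (lower bar) for 40 of the 41 genes with a peak, grouped by role, with a 0 where a list holds none. FN1 has 7 knockout and 11 SiHa peaks and THBS1 1 and 10, while ITGB1, ITGB4, COL4A1, COL4A2, COL18A1 and CD44 have SiHa peaks alone.

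Most genes with peaks in both lists had them at separate places, in the family as in the whole lists. Of the 17 such genes of the family, 12 (70.6%) had no peaks that overlapped, against 60.5% of all 1971 such genes. Within these genes 8 of 27 knockout peaks (29.6%, against 34.1%) and 9 of 56 SiHa peaks (16.1%, against 20.5%) were overlapped. Over all peaks, those of genes in 1 list included, overlap with the SiHa list was found for 8 of the 37 knockout peaks (21.6%, against 19.2% of the whole list), and overlap with the knockout list for 9 of the 102 SiHa peaks (8.82%, against 6.76%). These peaks lay in 5 genes, FN1, THBS1, ITGA3, ITGB5 and NID1. The other 27 of 32 genes had no SiHa peak that a knockout peak touched (84.4%, against 89.3% of all genes with a SiHa peak). In the 12 genes without overlap, the nearest peaks lay 59 to 86196 bases apart in the genome, introns included, with a median of 7151.

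Among integrin α chains, which set what a receptor binds, 5 of 12 had a peak in either list, against 7138 of all 20056 protein-coding genes. ITGA1, ITGA3, ITGA4 and ITGA6 had peaks in both lists and ITGA5 in SiHa alone. ITGA3, the α chain of a laminin receptor (chromosome 17, 50056110 to 50090481), had 3 knockout peaks and 6 SiHa peaks. Its widest SiHa peak held 1379 bases in 3 blocks at 50087747 to 50090211, close to the 3′ end of the gene, with a p listed at 0. Inside it lay a knockout peak of 180 bases at 50089882 to 50090061 (fold 2.71, p of 3e-05). The remaining 2 knockout peaks of ITGA3 had folds of 28.2 and 7.69 and touched no SiHa peak.

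ITGA6, the α chain of the hemidesmosome receptor, had all its peaks within 2 kb of the 3′ end but at separate places. The knockout peak lay at 172505863 to 172506042 on chromosome 2 (fold 53.8, p of 4e-13). The SiHa peaks lay at 172504244 to 172504784 (p of 5e-34) and 172505293 to 172505443 (p of 1.8e-05), the nearer of them 419 bases away. ITGA5, the α chain of the classical fibronectin receptor, had 0 knockout peaks and 2 SiHa peaks. The stronger of these was an unbroken stretch of 869 bases at chromosome 12, 54395351 to 54396219, which ends 0.090 kb from the 3′ end, with a p listed at 0. In ITGA1, a collagen receptor chain, and ITGA4, a receptor chain for fibronectin and VCAM1, each list had 1 peak, 38052 and 24384 bases apart.

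Among integrin β chains, ITGB1, the shared partner of most α chains with a peak here, stood out by its width. It had 0 knockout peaks and 3 SiHa peaks. One of these covered 2632 bases in 16 blocks between 32901515 and 32933390 on chromosome 10, with a p listed at 0, and it ranked first of all 12924 SiHa peaks by bases and by number of blocks. Of its partners, ITGA5 had SiHa peaks alone as well, and ITGA1, ITGA3, ITGA4 and ITGA6 had peaks in both lists. ITGB4, the β chain of hemidesmosomes, had 0 knockout peaks and 5 SiHa peaks of 180 to 240 bases, with p-values between 0.0066 and 2.4e-07. ITGB5, which pairs with αV in a vitronectin receptor, had 1 knockout peak and 2 SiHa peaks. The knockout peak (fold 14.5, p of 7.9e-17) ran across a splice junction from 124796713 to 124809097 on chromosome 3. It shared 61 bases with the SiHa peak at 124796413 to 124796773 (p of 7.9e-32), whose first bases in the genome are the ITGB5 sequence printed above. ITGB2, the β chain of leukocyte integrins, had 1 knockout peak (fold 17.9, false discovery rate 0.0447) and 0 SiHa peaks. ITGB1BP1, a cytoplasmic protein that binds the β1 tail and falls under the symbol rule, had 0 knockout peaks and 1 SiHa peak (p of 5.8e-08). In the span of ITGB3, the β chain of a platelet and endothelial receptor, 2 identifiers had 2 SiHa peaks each that shared 446 bases, so the name fell to neither. ITGB3 stayed among the 90 genes but is in no main count of genes with a peak.

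**Figure D2:**
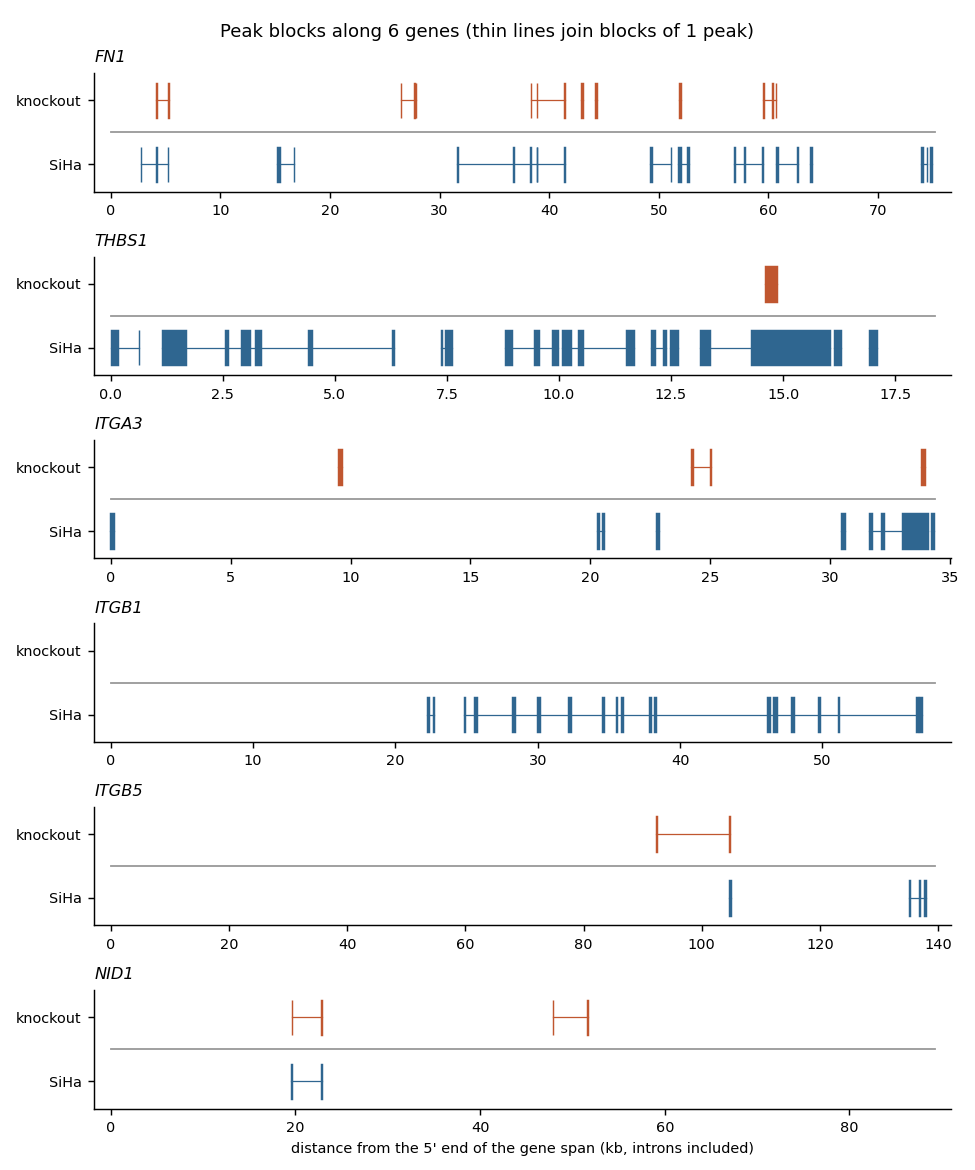
Peak blocks of 6 genes along the gene span (x axis, kb from the 5′ end, introns included), with knockout peaks above the grey line and SiHa peaks below it. Thin lines join blocks of 1 peak. In THBS1 and ITGA3 a knockout peak lies within the widest SiHa peak, the 2 peaks of FN1 nearest its 3′ end are in SiHa alone, and ITGB1 has no knockout peak.

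Laminins are trimers of an α, a β and a γ chain. Of 12 chains, 6 had a knockout peak and 4 a SiHa peak, against 14.9% and 29.2% of all protein-coding genes. None of the 7 knockout and 10 SiHa peaks of laminins overlapped between the lists, against 19.2% and 6.76% of all peaks. With so few peaks this lack does not set laminins apart. LAMA3, an α chain of epithelial laminin, had 1 knockout peak (fold 23.1, p of 1.1e-05) and 0 SiHa peaks, whereas the β chain LAMB3 had 0 and 1. In the widespread trimer of LAMA5, LAMB1 and LAMC1, the α5 chain had 2 knockout peaks and 0 SiHa peaks. The stronger of these, at 62315201 to 62316211 on chromosome 20, had a fold of 6.84 and a p of 2e-50. LAMB1 had 1 knockout peak and 2 SiHa peaks, and LAMC1 had 1 and 3. A SiHa peak of LAMC1 with 629 bases in 3 blocks, 2.60 kb from the 3′ end, had a p listed at 0, and the knockout peak of LAMC1 lay 13178 bases from any SiHa peak of the gene. LAMB2 and LAMC3 had 1 knockout peak each and 0 SiHa peaks. The false discovery rate of the LAMB2 peak was 0.466.

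Among collagens, 14 of 44 chains had a peak, with 7 knockout peaks in 7 genes and 31 SiHa peaks in 11 genes. These gene counts lie near the 14.9% and 29.2% of all protein-coding genes with a knockout and with a SiHa peak. No collagen peak overlapped between the lists, against 19.2% of all knockout and 6.76% of all SiHa peaks. With so few peaks this lack does not set collagens apart. COL4A1 and COL4A2, which together form the ubiquitous type IV network of basement membranes, had 0 knockout peaks each and 4 and 5 SiHa peaks. Those of COL4A1 were weak, with p-values between 0.0066 and 4.1e-06. Those of COL4A2 reached 3.2e-16, in a peak of 600 bases in 5 blocks. Of the other type IV chains, COL4A4 had 1 knockout peak (fold 53.8) that lay 488 bases from the nearer of its 2 SiHa peaks, and COL4A6 had 1 knockout peak alone, with a false discovery rate of 0.525.

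COL18A1, a basement membrane collagen whose C-terminal part is released as endostatin, had 0 knockout peaks and 6 SiHa peaks with 2907 bases in all. A peak of 14 blocks between 45486963 and 45495416 on chromosome 21 (p of 5e-42) was second of the whole SiHa list by number of blocks. The 2 peaks nearest the 3′ end, with p-values of 5e-16 and 1e-114, shared 342 and 796 bases with a peak on the opposite strand assigned to SLC19A1 (p of 1e-109), so the gene behind them cannot be told apart here. COL13A1, a transmembrane collagen, had 0 knockout peaks and 3 SiHa peaks. The first, of 359 bases, began 0.025 kb from the 5′ end of the gene at chromosome 10, 69801931, and had the lowest p among the collagen peaks, 1e-230. COL27A1, a cartilage fibrillar collagen, had 0 and 4 peaks, the strongest with 5 blocks and a p of 1e-52. COL9A3 and COL26A1 had 0 knockout peaks and 1 SiHa peak each, both at p of 0.027.

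The remaining collagens all had a knockout peak. COL1A2, a chain of type I collagen, had 1 knockout peak of 181 bases at chromosome 7, 94430422 to 94430602, 0.625 kb from the 3′ end, with a fold of 121 and a p of 1.3e-29, and 0 SiHa peaks. COL5A1, a chain of type V collagen, had 1 knockout peak (fold 5.13) and 2 SiHa peaks, which lay 86196 bases away or more. COL7A1, the collagen of anchoring fibrils beneath squamous epithelium, had 1 knockout peak of 4 blocks (fold 8.12, p of 2e-08) and 2 SiHa peaks (p of 0.00058 and 0.027). COL6A3 had 1 peak in either list, with a knockout fold of 35.9 and a SiHa p of 0.027. COL9A1, of cartilage, had a knockout peak alone (fold 17.9).

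The peaks of collagen genes carried the exon pattern of the triple helix. The helix repeats glycine and 2 further residues, which take 9 bases, and many helix exons are 54 bases long or another multiple of 9. Peaks of 3 or more blocks have inner blocks that are bounded by gaps on both sides. In collagen genes 24 of 37 inner blocks (64.9%) had a length that is a multiple of 9, against 5 of 36 (13.9%) in the other genes of the family and 205 of 1429 (14.3%) in all peaks of the 2 lists, collagens included. A length of exactly 54 bases was found for 7 of the 37, among them all 3 inner blocks of COL27A1, and for 22 of the 1429. The share was 3 of 9 in COL4A2, and 10 of 15 in COL18A1. Blocks of 1 gene share that gene's exon structure, so this describes where the peaks lie and was not tested.

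**Figure D3:**
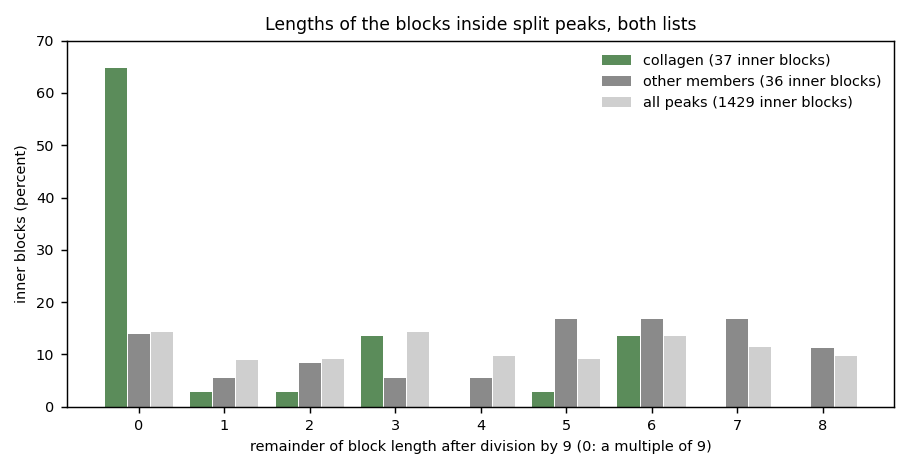
Share of inner blocks (y axis, percent) by the remainder of their length after division by 9 (x axis), for collagen genes, the other genes of the family and all peaks, with both lists pooled. At remainder 0 collagen genes reach 64.9%, against 13.9% and 14.3%.

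Fibronectin, the ligand of ITGA5 with ITGB1, had the most peaks of the family in either list. FN1 (chromosome 2, 215360865 to 215436068) had 7 knockout peaks with 1293 bases and 11 SiHa peaks with 2558 bases. Of these, 4 knockout peaks and 5 SiHa peaks overlapped. The knockout folds of FN1 were between 15.4 and 162, and its lowest knockout p was 3.2e-89, at 215408179 to 215409625, where no SiHa peak lay within 3731 bases. The lowest SiHa p was 2e-22, at 215419383 to 215420879, which no knockout peak touched. The fullest overlap was a knockout peak of 180 bases at 215384074 to 215384253 (fold 20.5), which lay wholly inside a SiHa peak of 420 bases with a p of 1.6e-15. Another knockout peak, at 215394619 to 215397702 (fold 56.4), shared 152 of its 211 bases with 2 SiHa peaks.

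THBS1, thrombospondin 1, a secreted regulator of adhesion and TGF-β activation, had 1 knockout peak and 10 SiHa peaks. The SiHa peaks held 4947 bases, the most of any of the genes, and they began at the first base of the gene (chromosome 15, 39581079). The widest held 1976 bases at 39594236 to 39597132, ranked sixth of the whole SiHa list, and had a p listed at 0. The knockout peak of 270 bases at 39595666 to 39595935 lay wholly inside it, with a fold of 17.4 and a p of 1e-208. By that p it was stronger than 99.3% of the knockout list. Another SiHa peak of THBS1, at 39588453 to 39588686, shared 153 of its 181 bases with a peak on the opposite strand that received no name.

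TNC, tenascin C, an antiadhesive glycoprotein of remodelling matrix, had 1 knockout peak (fold 10.3, p of 0.00019) and 5 SiHa peaks, 9619 bases apart or more. Its widest SiHa peak held 1467 bases at chromosome 9, 115084279 to 115087136, with a p listed at 0. CD44, the hyaluronan receptor, had 0 knockout peaks and 4 SiHa peaks. A CD44 peak of 330 bases that crosses a splice junction, 35223302 to 35229439 on chromosome 11, had a p listed at 0. AGRN, the heparan sulfate proteoglycan agrin, had 0 knockout peaks and 2 SiHa peaks, at both ends of the gene (p of 2.5e-25 and 5e-41). LOXL2, which crosslinks collagen through lysine oxidation, had 1 knockout peak (fold 18.8, p of 6.3e-12) that lay 59 bases from the nearest of its 3 SiHa peaks.

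Among the linkers of the basement membrane, HSPG2, or perlecan, had 2 knockout and 2 SiHa peaks, with no overlap and at least 2672 bases between the lists. All 151 bases of its SiHa peak at 21823324 to 21823474 also lay in a peak of LDLRAD2 on the opposite strand, with the same p of 4e-06. NID1, nidogen 1, which joins laminin to type IV collagen, had 2 knockout peaks with folds of 300 and 28.2 and 1 SiHa peak (p of 0.0016). The weaker knockout peak and the SiHa peak shared 90 bases. NID2 had 1 knockout peak (fold 23.1, p of 1.1e-05) and 0 SiHa peaks, and 173 of the 180 bases of this peak lay in a peak of RTRAF on the opposite strand with the same p. Opposite-strand partners were found for 1 of the 37 knockout peaks and 4 of the 102 SiHa peaks of the family, against 4.96% and 6.39% of all peaks. No peak was found in SPARC or LOX.

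**Figure D4:**
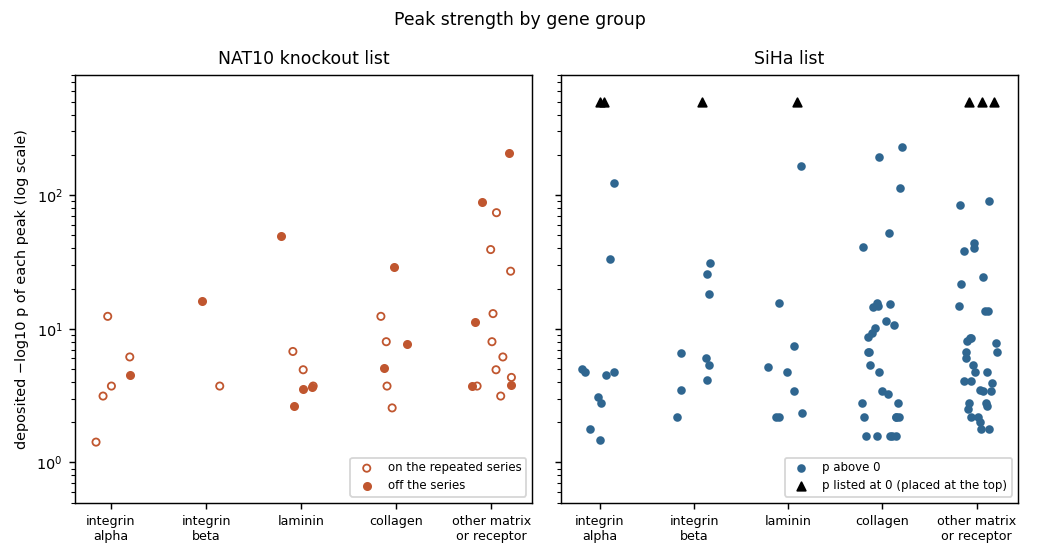
Deposited −log10 p of each peak (y axis, log scale) by gene group (x axis) in the knockout list (left) and the SiHa list (right). The SiHa peak of ITGB1BP1 is not drawn. Open circles are knockout peaks on the repeated series, and triangles at the top are the 7 SiHa peaks with a p listed at 0, which lie in ITGA3, ITGA5, ITGB1, LAMC1, CD44, THBS1 and TNC.

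In strength the peaks of the family lay near those of their lists. The median −log10 p was 5.13 in the knockout list, against 5.45 over all its peaks, and 5.72 in the SiHa list, against 6.05. The SiHa peaks had a heavier top, with 7 of 102 listed at 0 (6.86%, against 2.39% of all). Of these 7 genes ITGA5, ITGB1 and CD44 had no knockout peak. A false discovery rate above 0.05 was given for 5 of the 37 knockout peaks (13.5%, against 25% of all), in COL4A6, ITGA3, ITGA4, LAMB2 and FN1. The p-values of SiHa peaks recur. For 39 of the 102 (38.2%, against 37.6% of all) the p was shared by at least 100 peaks of the list.

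Many knockout folds were also repeated values. They were whole multiples of a step of 2.5635, with a p fixed by the multiple, and what lies behind this series is not stated. It held 23 of the 37 knockout peaks of the family (62.2%, against 45.3% of all), including 6 of the 7 in FN1 and both in NID1. Without these peaks 13 genes had a knockout peak, and 22 of the 32 genes with a SiHa peak (68.8%) had none in the knockout, against 82.2% of all genes. Off the series as called with this step, the genes with a knockout peak alone were LAMA5, LAMB2 and COL1A2. The call for COL1A2 is uncertain, because the step was fitted to lower folds and rounding can leave a larger fold off the series. Its fold of 121 and −log10 p of 28.9 lie between those of FN1 peaks on the series (113 and 27.0, 162 and 39.2). Whether folds on and off the series share a scale is not known.

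Peaks of the family were often split, and its knockout peaks lay within 2 kb of a gene end less often than those of all genes. For SiHa peaks the shares within 2 kb were near those of all genes. Peaks of 2 or more blocks made up 22 of 37 in the knockout list (59.5%, against 31.3% of all) and 53 of 102 in the SiHa list (52.0%, against 25.2% of all). Within 2 kb of the 3′ end of the gene lay 6 knockout peaks (16.2%, against 27.0% of peaks in all named protein-coding genes) and 29 SiHa peaks (28.4%, against 32.3%). Within 2 kb of the 5′ end lay 0 knockout peaks (against 12.8%) and 11 SiHa peaks (10.8%, against 11.8%). The median distance from the 3′ end was 30.9 kb for knockout peaks and 12.8 kb for SiHa peaks, against 5.64 and 4.02 kb over all protein-coding genes. These distances include introns and move with the span of the gene.

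**Figure D5:**
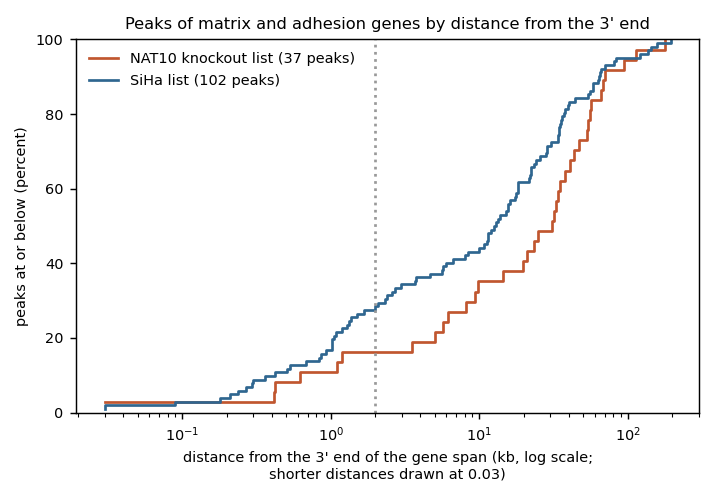
Cumulative share of peaks (y axis, percent) by distance from the 3′ end of the gene (x axis, kb, log scale) for the 37 knockout peaks and the 102 SiHa peaks of the family. The dotted line marks 2 kb, below which 16.2% of knockout and 28.4% of SiHa peaks lie.

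Further genes of matrix biology outside the symbol rule were taken from 4 lists with 197 entries. Their counts of genes with a knockout and with a SiHa peak are to be read against 14.9% and 29.2% of all protein-coding genes. As above, the 73% of all genes given below is over every identifier with a SiHa peak. Adaptors of focal adhesions and hemidesmosomes had knockout peaks in 18 of 49 genes and SiHa peaks in 33, of which 18 (54.5%) had none in the knockout, against 73% of all genes. The cytolinker DST (3 knockout and 26 SiHa peaks), the filamin FLNA (4 and 11) and vinculin, VCL (2 and 4), had peaks in both lists. The actin crosslinker ACTN1 (0 and 3), the adaptors BCAR1 (0 and 4) and NEDD9 (0 and 4) and the kinase SRC (0 and 4) had SiHa peaks alone. The filamin FLNC and the adaptor TGFB1I1 had 1 knockout peak each and none in SiHa.

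Enzymes that fold, modify or cleave matrix proteins had the highest share without a knockout peak of the 4 lists. Knockout peaks were found in 7 of 56 genes and SiHa peaks in 25, of which 21 (84.0%) had none in the knockout, against 73% of all genes. The prolyl isomerases FKBP10 (0 knockout and 3 SiHa peaks) and PPIB (0 and 1), the prolyl 4-hydroxylase subunit P4HB (0 and 2) and the protease inhibitor TIMP2 (0 and 3) were among these 21. The proprotein convertase FURIN (1 and 1), the collagen modifier P3H4 (1 and 3) and the protease ADAMTS1 (2 and 1) had peaks in both lists. MMP1, the interstitial collagenase, and PLOD2, a lysyl hydroxylase, had 1 knockout peak each and none in SiHa.

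Other matrix proteins had knockout peaks in 15 of 50 genes and SiHa peaks in 17, of which 6 (35.3%) had none in the knockout, against 73% of all genes. The proteoglycan VCAN (3 knockout and 15 SiHa peaks), NTN4 (1 and 3), SPP1, or osteopontin (1 and 2), and CRIM1 (1 and 3) had peaks in both lists. The latent TGF-β binding protein LTBP3 (0 and 3), the proteoglycan SPOCK1 (0 and 1), THBS2 (0 and 1) and the guidance factor SLIT2 (0 and 2) had SiHa peaks alone. The netrin NTN1 and LTBP4 had 1 knockout peak each and none in SiHa. Other matrix receptors had knockout peaks in 16 of 42 genes and SiHa peaks in 20, of which 11 (55.0%) had none in the knockout, against 73% of all genes. Dystroglycan, DAG1 (2 and 5), NRP2 (1 and 10), the collagen receptor ANTXR2 (1 and 2) and CD47 (1 and 1) had peaks in both lists. The coreceptor NRP1 (0 and 5), the syndecans SDC1 (0 and 5) and SDC3 (0 and 1) and the semaphorin receptor PLXNB2 (0 and 3) had SiHa peaks alone. The glypicans GPC2 and GPC3 had 1 knockout peak each and none in SiHa. Of the genes named here with a knockout peak alone, FLNC, MMP1, NTN1, LTBP4, GPC2 and GPC3 had it on the repeated series. TGFB1I1 and PLOD2 had it off the series.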

How the data were processed

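Per the submitters' processing notes, FastQC 0.11.7 and GRCh38 were used, while the sources used here do not name an aligner, a peak caller or an annotation, or say how replicates were pooled. Per the labels' protocols, library preparation used a kit for stranded mRNA. The deposited p-value of each peak, its log10 values (kept as a score) and its fold, a ratio with unstated reference, are the authors' own. They served to describe or rank peaks within a list. Left out were peaks on unplaced sequence (2 knockout, 3 SiHa) and 1 repeated SiHa line. No list pairs identifiers with names. Names were taken by position from RefSeq spans of GRCh38.p14: at least 90% of an identifier's bases in the span, on the same strand where the promoter table gives one (67 of the 90 genes), with several claims on a name refused. Of 9046 identifiers 7721 were named. Peaks overlapped when blocks on 1 strand shared at least 1 base. Overlap and naming were tested on simulated data. Python 3.11.15 and pandas 2.3.3 were used. Genes with a peak are named, except that some results are not reported here, and pathway genes by lowest SiHa p or highest knockout fold. The members and lists were chosen with earlier results of these data known. No statistical test was made, since each population has 1 list. Peak strength, list size, overlap, the member rule and the repeated series were varied.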

Additional observations from a re-analysis of the deposited data

How the results depend on the processing

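Counts of genes with a knockout peak, a SiHa peak, both, SiHa alone or knockout alone were 26, 32, 17, 15 and 9, and 9 SiHa peaks were overlapped. With peaks above a −log10 p of 5 there were 15 genes with a knockout peak, 8 with both and 4 overlapped SiHa peaks. Above 8 there were 11 with a knockout peak, 19 with a SiHa peak, 5 with both and 3 overlapped peaks. When only as many of the strongest SiHa peaks were kept as there are knockout peaks, 19 genes had a SiHa peak, 10 both, 9 SiHa alone and 16 knockout alone, with 5 overlapped peaks. Off the repeated series, with the uncertain peak of COL1A2 counted as off it, 13 genes had a knockout peak, 10 both and 3 knockout alone, with 3 overlapped peaks. Counting a gene as shared only through overlapping peaks gave 5 shared, 27 SiHa alone and 21 knockout alone. Overlap of at least 50% of both peaks left 3. These counts moved by over 1.5 times. The other 25 of 45 alternative values did not, among them all those with a knockout false discovery rate of 0.05 or below, with subunit names alone and with ITGB3 counted, which was added after seeing the data. Naming by Ensembl identifier and leaving out a replicate were not run, since the tables pair no names and each list pools its libraries. No paired analysis was possible because the lists hold no value per replicate. Depth is unknown, so a peak missed for lack of reads cannot be told apart from an absent one.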
